A study of Homo sapiens with 6 samples.

Results

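The genes that encode the chains of the collagens and laminins were examined in HMV-II cells, a human vaginal mucosal melanoma cell line, after knockdown of EZH2, the catalytic subunit of the Polycomb repressive complex PRC2, a histone methyltransferase. Members were taken by the form of the gene name, with earlier results of these data known. They were every protein-coding gene of the deposited table whose symbol has the form of a collagen chain (COL, a type number, A and a chain number) or of a laminin chain (LAMA, LAMB or LAMC and a number). This took 55 of 30015 genes, of which 11 were fibrillar collagens, 8 basement membrane collagens, 24 other collagens and 12 laminins. COL23A1 was not among the 55 genes that this rule took, so it was not analysed here. The series held 6 poly(A)-selected RNA libraries from puromycin-selected stable lines made with lentiviral particles, 3 with a scrambled control shRNA (labelled Vector, genotype WT) and 3 with an shRNA against EZH2 (shEZH2). All 6 carried a lentiviral construct, and 1 shRNA against EZH2 was used. No source states that the 3 libraries of a group came from separate cultures or infections, so p-values measure the spread between these libraries only. Since the libraries are bulk RNA, fewer expressing cells and less RNA per cell cannot be told apart.

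Collagens are trimers wound from alpha chains that can come from one gene or several. Fibrillar collagens build the banded fibrils of connective tissue, type IV collagen builds the sheet-like network of basement membranes, and the fibril-associated collagens with interrupted triple helices (FACIT) decorate fibrils. Laminins are cross-shaped trimers of an alpha, a beta and a gamma chain that organise basement membranes and bind integrins and dystroglycan on cells. Melanoma cells can make both kinds of matrix protein and attach to them.

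The total of gene reads was 13400290 to 15923029 in the Vector libraries and 16129171 to 19128939 in the shEZH2 libraries. EZH2 had 483, 437 and 552 normalized counts in Vector replicates 1 to 3 and 237, 247 and 225 in shEZH2 replicates 1 to 3, a log2 fold change of -1.04 (SE 0.14, limma adjusted p = 0.0142). Fold changes are shEZH2 against Vector on the log2(normalized count + 1) scale. A gene was called when its unadjusted limma p was below 0.05 and its level changed by more than 1.5-fold in either direction, the study's own threshold, and the Benjamini-Hochberg adjusted p over all 15251 genes tested is given beside it. Vector replicate 2 stood apart from the other Vector libraries along gene length. Its log2 ratio to Vector replicates 1 and 3 had a median of -0.54 in the shortest quintile of genes (median 1407 exonic bases) and 0.42 in the longest (median 10365.5). The tested collagen and laminin genes are long, with a median of 8518 exonic bases against 4622 over all genes tested. Fold changes below are therefore given with and without this library. The melanocyte genes PMEL, SOX10 and MITF were expressed in all 6 libraries (48607 to 67512, 13186 to 18441 and 1386 to 1920 normalized counts). All 8 melanocyte markers were tested, and 2 were called higher (TYRP1 with a log2 fold change of 1.68 and MLANA with 0.88) and 1 lower (TYR, -0.97), with 1.64, 0.39 and -1.22 without Vector replicate 2, where MLANA was no longer called. Of the 6 fibroblast markers in the table, PDGFRA, PDGFRB, DCN and THY1 stayed under 10 normalized counts in every library, whereas LUM and FAP were called higher, and the summed level of the 6 was 364 to 398 in Vector and 688 to 879 in shEZH2 libraries. Whether the level of these markers bears on the results below was not tested.

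The collagen and laminin transcripts of HMV-II cells were those of a few chains. Of the 55 members, 30 reached a mean of 10 normalized counts and were tested, and 20 reached a mean of 50. Levels between genes are compared per kb of exon. LAMC1, the gamma chain of most laminins, had the highest level at 1287 normalized counts per kb (mean of 6 libraries), followed by COL9A3, a chain of the FACIT collagen type IX, at 739. Among the fibrillar collagens COL11A2, a chain of the cartilage collagen type XI, led with 17.3, and among the basement membrane collagens COL18A1, the source of endostatin, led with 154. The laminin genes summed to 2395, 3877 and 2383 normalized counts per kb in Vector and 2037, 2163 and 2311 in shEZH2 libraries. The fibrillar collagens summed to 49.6, 59.4 and 44.6 in Vector and 43.4, 39.2 and 41.6 in shEZH2 libraries. Vector replicate 2 was the highest library in both sums, and the other laminin sums of Vector, 2383 and 2395, were close to the highest of shEZH2.

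**Figure D1:**
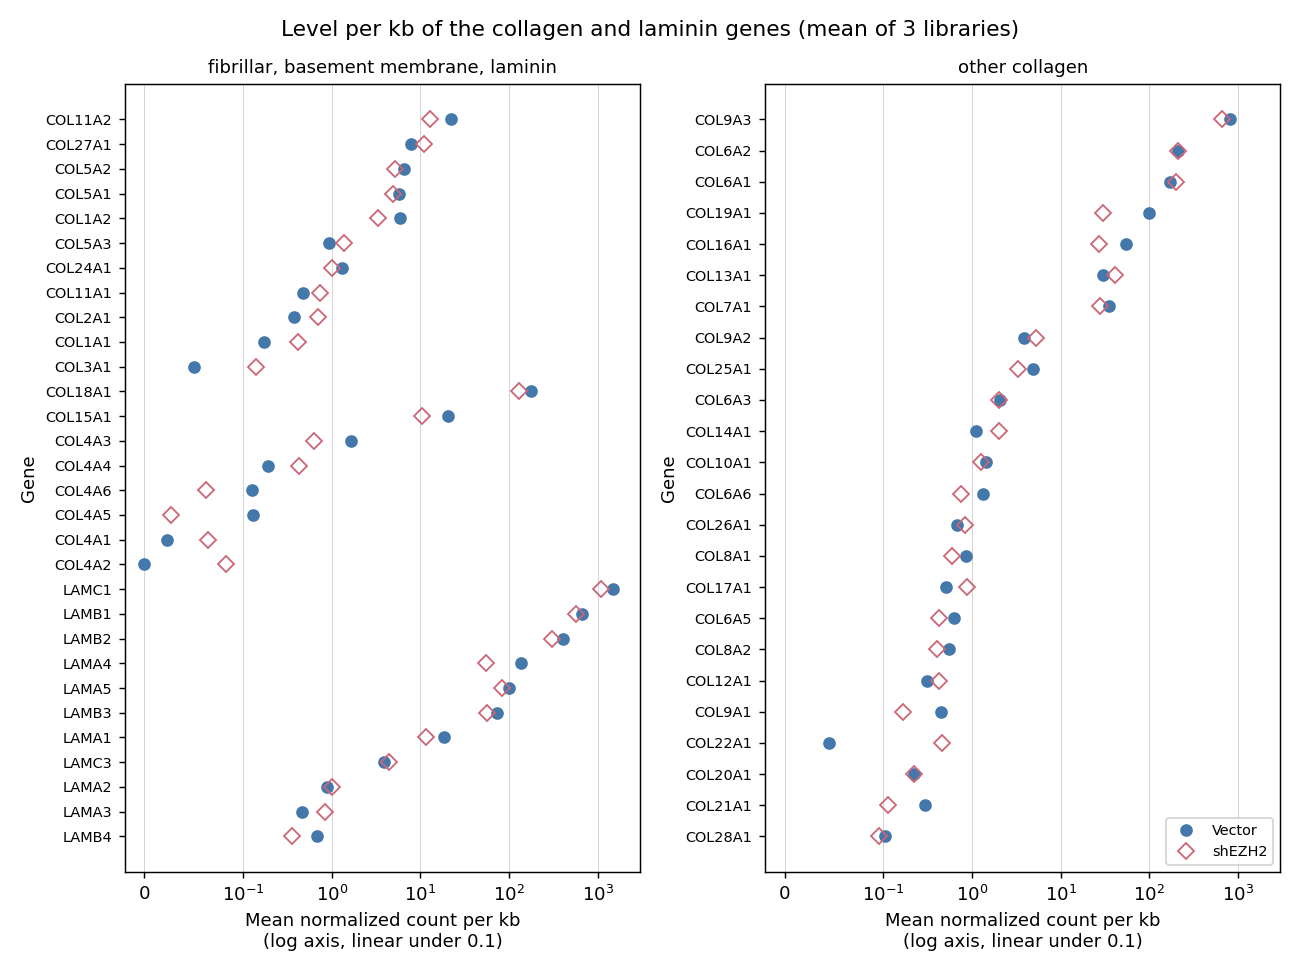
Mean normalized count per kb of exon of 54 collagen and laminin genes, on a log axis that is linear under 0.1. Filled blue points are the mean of 3 Vector libraries and open red diamonds the mean of 3 shEZH2 libraries. LAMC1, COL9A3 and the other main chains lie near or above 100, and COL4A1 and COL4A2 lie near 0 in both groups.

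Partner chains of one collagen type stood at unequal levels. Type I collagen is normally built from the products of COL1A1 and COL1A2, but COL1A2 had 4.59 normalized counts per kb and COL1A1 0.298, a ratio of 15.4. For type VI collagen, which forms beaded filaments, COL6A1 and COL6A2 had 186 and 210 and the third classical chain, COL6A3, had 2.04. For type IX collagen COL9A3 had 739, COL9A2 4.55 and COL9A1 0.309. The chains COL5A1 and COL5A2 of type V collagen, which regulates fibril diameter, were nearly level at 5.29 and 5.87. The network-forming chains COL4A1 and COL4A2, which share a divergent promoter in basement membrane-producing cells, had 0, 0 and 1 reads and 0, 0 and 0 reads in the Vector libraries and 3, 0 and 0 reads and 3, 0 and 2 reads in the shEZH2 libraries. These counts were at or under the floor of 3 reads, which is worth 2.40 to 3.49 normalized counts depending on the library, so no fold change is given.

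The 25 members that were not tested had at most 18.1 normalized counts (19 reads) in any library. They were the fibrillar genes COL5A3, COL11A1, COL2A1, COL1A1 and COL3A1, the type IV genes COL4A1, COL4A2, COL4A4, COL4A5 and COL4A6, the other collagens COL8A1, COL8A2, COL9A1, COL10A1, COL12A1, COL17A1, COL20A1, COL21A1, COL22A1, COL26A1, COL28A1 and COL6A5, and the laminins LAMA2, LAMA3 and LAMB4. Some members with low counts lay next to members with high counts, and other neighbours were alike. COL19A1 and COL9A1 are 5.1 kb apart and had means of 543 and 2.24 normalized counts, and LAMB1 and LAMB4 are 20.3 kb apart with means of 4963 and 3.62. COL6A1 and COL6A2, 93.0 kb apart, both had high means of 994 and 1134, and COL6A5 and COL6A6, 75.5 kb apart, both had low means of 5.08 and 10.2.

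After EZH2 knockdown, 6 of the 30 tested members were called lower and 0 higher. Over all genes tested, 7.07% were called lower and 7.55% higher. The 6 were the FACIT collagens COL19A1 and COL16A1, the laminin alpha chain LAMA4, the multiplexin COL15A1 and the fibrillar chains COL1A2 and COL11A2. At an adjusted p below 0.05, COL19A1 and LAMA4 were lower and 0 members higher, with 1.84% of all genes lower and 2.28% higher. With no fold limit, 1 member (COL27A1) was higher by limma's unadjusted p, and DESeq2 and edgeR on the recovered reads also called 0 members higher by the threshold. The members' median log2 fold change was -0.36 against 0.04 over all genes tested. The groups did not overlap in 10 members with shEZH2 lower and 2 with shEZH2 higher, while 16.5% and 18.4% of all genes tested showed such a separation.

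Without Vector replicate 2, 29 members were tested, with COL4A3 and COL6A6 lost and LAMA3 added. By the threshold 5 were called lower and 0 higher, against 5.61% and 7.15% of the 15123 genes then tested, and COL11A2 was the one no longer called. By adjusted p, 6 members were lower (COL19A1, LAMA4, COL16A1, COL15A1, COL1A2 and COL9A3) and 1 higher (COL27A1), against 9.18% and 9.92% of all genes. The members' median log2 fold change moved from -0.36 to -0.16, and the median over all genes to -0.0032.

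**Figure D2:**
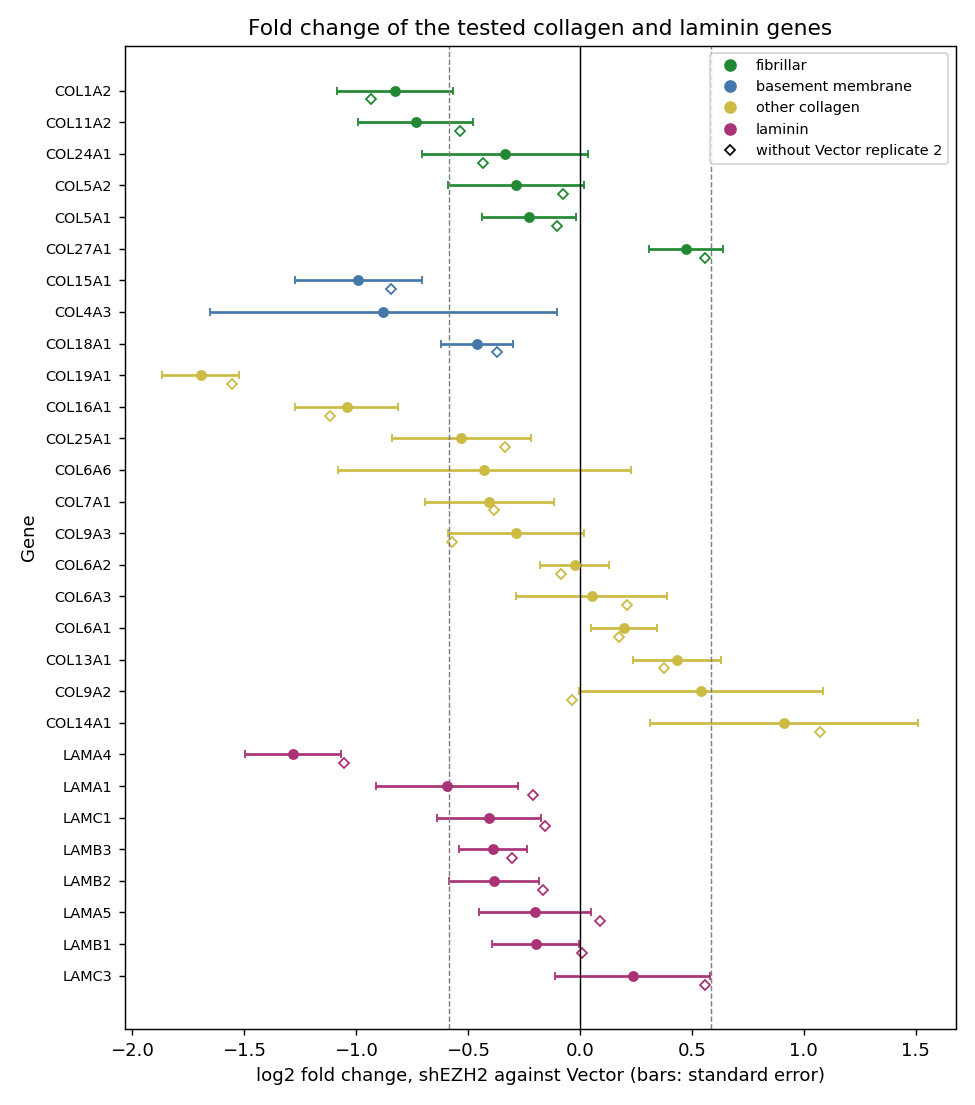
log2 fold change of 29 tested members, shEZH2 against Vector, grouped and coloured by class. Filled points with bars are the fit of all 6 libraries with its standard error, open diamonds the fit without Vector replicate 2, and dashed lines the threshold of 1.5-fold. COL19A1 lies lowest in both fits, and the laminin diamonds lie to the right of their points. COL4A3 and COL6A6 have no diamond, since they were not tested without that library.

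COL19A1 showed the largest fall among the tested members. The gene encodes the chain of type XIX collagen, a FACIT found in basement membrane zones, and lies at chr6:69866571-70209976 on the plus strand (GRCh38). It had 745, 1004 and 748 normalized counts in Vector replicates 1 to 3 and 238, 240 and 286 in shEZH2 replicates 1 to 3. All shEZH2 libraries lay far below all Vector libraries. The means were 832 ± 148 and 255 ± 27.5 (SD, n = 3 libraries each), with a log2 fold change of -1.70 (SE 0.17, limma adjusted p = 0.00607) and of -1.55 without Vector replicate 2 (adjusted p = 7.18e-06). Leaving out shEZH2 replicate 1, 2 or 3 raised the adjusted p to 0.0616, 0.061 and 0.0578, with log2 fold changes of -1.65, -1.65 and -1.78. Over 666 bases it overlaps LMBRD1 on the opposite strand, which had means of 170 and 260 normalized counts and a log2 fold change of 0.60. Whether reads were counted by strand is not given in the sources used here.

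LAMA4, the alpha chain of laminins of vessels, muscle and nerve, lies at chr6:112108760-112254939 on the minus strand. It had 1318, 2083 and 1286 normalized counts in Vector and 539, 671 and 677 in shEZH2 libraries. The groups did not overlap, and Vector replicate 2 was the highest. The means were 1562 ± 451 and 629 ± 78.0 (SD, n = 3 each), with a log2 fold change of -1.28 (SE 0.22, limma adjusted p = 0.0249) and of -1.06 without Vector replicate 2 (adjusted p = 1.0e-04). The adjusted p rose to 0.0533 without Vector replicate 1, to 0.0524 without Vector replicate 3, and to 0.131, 0.111 and 0.141 without shEZH2 replicate 1, 2 or 3, while the fold change and unadjusted p stayed past the threshold in each of these fits. It overlaps 4 noncoding genes, each with a mean of at most 3.26 normalized counts.

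COL16A1, a FACIT collagen of fibroblast and smooth muscle matrix, lies at chr1:31652247-31704319 on the minus strand. It had 563, 451 and 494 normalized counts in Vector and 339, 189 and 222 in shEZH2 libraries, so that the highest shEZH2 library stayed below the lowest Vector library. The log2 fold change was -1.04 (SE 0.23, limma adjusted p = 0.0519) and -1.12 without Vector replicate 2 (adjusted p = 0.00206). AC114488.2 overlaps it on the opposite strand at a mean level of 8.73 normalized counts.

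The promoter windows of these 3 genes are shown because they were the members with the largest falls, beside that of COL4A1 as a nearly silent basement membrane gene. Each runs from 250 bases before to 50 after the most upstream RefSeq start (GRCh38.p14), 5′ to 3′ on the gene's strand, with CpG dinucleotides in capitals.
COL19A1 (chr6:69866306-69866605, strand +): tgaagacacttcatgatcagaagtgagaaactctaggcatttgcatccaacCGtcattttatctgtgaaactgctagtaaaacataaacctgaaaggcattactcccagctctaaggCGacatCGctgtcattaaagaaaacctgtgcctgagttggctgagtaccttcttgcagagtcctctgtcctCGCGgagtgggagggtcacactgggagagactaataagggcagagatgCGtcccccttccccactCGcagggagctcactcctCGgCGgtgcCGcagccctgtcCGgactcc
LAMA4 (chr6:112254518-112254817, strand -): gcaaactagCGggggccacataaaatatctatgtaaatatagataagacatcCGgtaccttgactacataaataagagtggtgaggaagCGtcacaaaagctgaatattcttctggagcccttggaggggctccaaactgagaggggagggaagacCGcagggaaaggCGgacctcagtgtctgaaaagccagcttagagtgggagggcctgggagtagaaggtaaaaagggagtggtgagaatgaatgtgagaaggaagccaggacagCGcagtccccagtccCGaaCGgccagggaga
COL16A1 (chr1:31703968-31704267, strand -): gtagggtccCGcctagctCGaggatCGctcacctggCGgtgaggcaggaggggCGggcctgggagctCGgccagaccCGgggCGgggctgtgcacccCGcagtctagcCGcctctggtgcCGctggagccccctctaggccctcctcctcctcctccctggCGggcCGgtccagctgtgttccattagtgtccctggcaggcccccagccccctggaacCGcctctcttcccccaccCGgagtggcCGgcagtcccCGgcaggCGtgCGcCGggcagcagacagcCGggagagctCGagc
COL4A1 (chr13:110307108-110307407, strand -): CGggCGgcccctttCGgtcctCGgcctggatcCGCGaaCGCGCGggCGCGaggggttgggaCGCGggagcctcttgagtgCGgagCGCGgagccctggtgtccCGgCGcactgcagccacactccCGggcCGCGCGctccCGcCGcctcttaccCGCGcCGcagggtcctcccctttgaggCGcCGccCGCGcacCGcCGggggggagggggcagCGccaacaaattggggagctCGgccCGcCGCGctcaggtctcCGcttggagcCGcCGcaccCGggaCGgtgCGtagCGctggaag
The COL19A1 window held 11 CpG dinucleotides, that of LAMA4 8, that of COL16A1 22 and that of COL4A1 45. The window with the most CpG of the 4 belonged to COL4A1, which had at most 3 reads in any library and was picked as an example. Over the 18 untested members with a window the median was 11 CpG. It was 24 over the 17 tested and not called, and 16 over the 5 called lower.

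Promoter windows were at hand for 40 of the 55 members and for 27305 genes in all. An observed-to-expected CpG ratio above 0.6, a usual mark of CpG islands, was found in 21 of the 40 members and in 48.8% of all windows. Among the members called lower that had a window it was found in 2 of 5, among those tested and not called in 13 of 17, and among those not tested in 6 of 18. The letters GGGCGG (a GC box, bound by Sp and KLF factors) were present on either strand in 22 of 40 member windows and 44.5% of all windows. The letters CATGTG (an E-box form bound by MITF) were present in 2 of 40 and 11.3%, and GGAATG (bound by TEAD factors) in 2 of 40 and 14.1%. In the 5 lower members these counts were 2, 0 and 0. Matches could overlap one another, and they describe the letters of the window only.

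COL15A1 encodes a multiplexin of basement membrane zones and lies at chr9:98943179-99070792 on the plus strand. It had 131, 164 and 112 normalized counts in Vector and 73.3, 45.5 and 89.7 in shEZH2 libraries, with no overlap between the groups. The log2 fold change was -0.99 (SE 0.28, limma adjusted p = 0.0965) and -0.84 without Vector replicate 2 (adjusted p = 0.0341).

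COL1A2, at chr7:94394561-94431232 on the plus strand, had 77.4, 55.9 and 63.1 normalized counts in Vector and 34.3, 28.7 and 47.7 in shEZH2 libraries, again without overlap. The log2 fold change was -0.83 (SE 0.26, limma adjusted p = 0.120) and -0.93 without Vector replicate 2 (adjusted p = 0.0245). It was no longer called without Vector replicate 1 (log2 fold change -0.70) or without shEZH2 replicate 2 (-0.67). COL11A2, at chr6:33162681-33192499 on the minus strand, had 151, 189 and 103 normalized counts in Vector and 103, 75.9 and 80.2 in shEZH2 libraries. Vector replicate 3 and shEZH2 replicate 1 were level to 3 digits, so the groups touch there, though the gene is among the 10 counted as separate. The log2 fold change was -0.73 (SE 0.26, limma adjusted p = 0.148). It was no longer called in the fit without Vector replicate 1 (-0.70) or 2 (-0.54), nor in that without shEZH2 replicate 2 (-0.65) or 3 (-0.69).

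**Figure D3:**
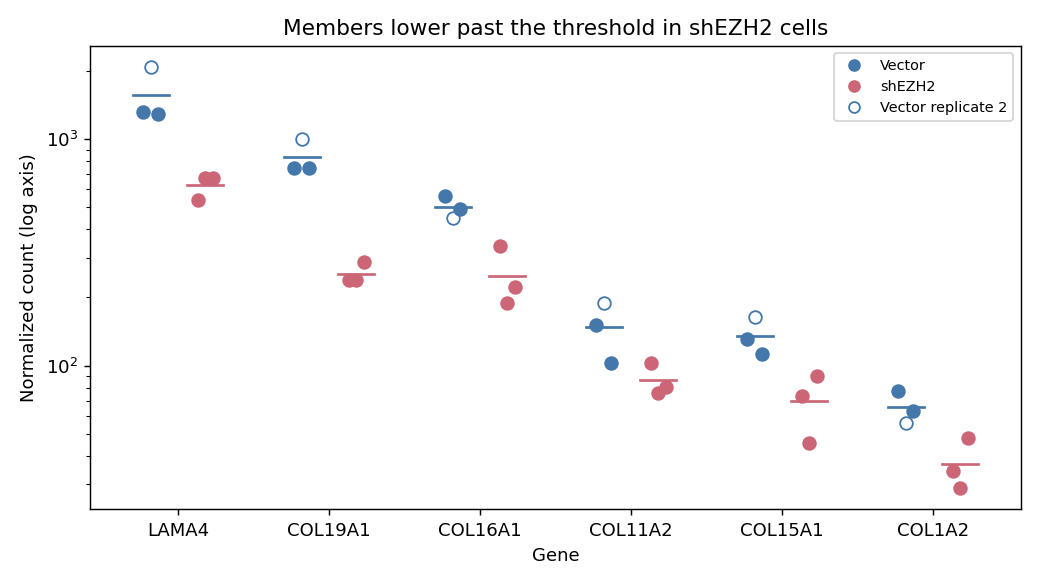
Normalized counts (log axis) of the 6 members called lower, with 1 point per library, Vector in blue and shEZH2 in red, and a line at each group mean. The open blue circle is Vector replicate 2. The groups are separate in LAMA4, COL19A1, COL16A1, COL15A1 and COL1A2, and touch in COL11A2 at 103.

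Among the fibrillar collagens 2 of 6 tested members were called lower (all genes 7.07%), and 1 without Vector replicate 2 (all genes 5.61%). The class median log2 fold change was -0.31, and -0.27 without that library. COL27A1, a fibrillar collagen of cartilage, had the one positive fold change of the class. It had 112, 123 and 95.7 normalized counts in Vector and 157, 148 and 154 in shEZH2 libraries, every shEZH2 library above every Vector library, with a log2 fold change of 0.47 (SE 0.16, limma adjusted p = 0.146) and of 0.56 without Vector replicate 2 (adjusted p = 0.0264). COL5A1, COL5A2 and COL24A1 had log2 fold changes of -0.23, -0.29 and -0.33, and of -0.10, -0.078 and -0.43 without Vector replicate 2, and did not pass the threshold in either fit.

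Of the basement membrane collagens 1 of 3 tested members was called lower (all genes 7.07%), with a class median of -0.88. Without Vector replicate 2 it was 1 of 2 (all genes 5.61%), with a median of -0.61. The -0.88 was the fold change of COL4A3 itself (SE 0.77), which was not tested without that library. Over the 2 members with a mean of at least 50, COL18A1 and COL15A1, the median in all 6 libraries was -0.73. COL18A1 had 1436, 1716 and 1398 normalized counts in Vector and 1286, 961 and 1066 in shEZH2 libraries. The groups did not overlap, but its log2 fold change of -0.46 (SE 0.16, limma adjusted p = 0.148) was within the fold limit, as was that of -0.37 without Vector replicate 2. It overlaps SLC19A1 on the opposite strand, which had a log2 fold change of 0.30. COL4A3 was tested because of 33.8 normalized counts in Vector replicate 2, and it had at most 9.55 in the other 5 libraries.

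Of the other collagens 2 of 12 tested members were called lower (all genes 7.07%), and 2 of 11 without Vector replicate 2 (all genes 5.61%). The class medians were -0.16 and -0.09. COL9A3 had 4598, 2557 and 4650 normalized counts in Vector and 4455, 2515 and 2688 in shEZH2 libraries. Vector replicate 2 sat with the lower shEZH2 libraries and shEZH2 replicate 1 with the higher Vector libraries. The log2 fold change was -0.29 (SE 0.30), past neither threshold, and -0.57 without Vector replicate 2 (adjusted p = 0.0478). COL6A1 and COL6A2 had log2 fold changes of 0.20 and -0.02, and of 0.17 and -0.09 without Vector replicate 2, and that of COL6A2 turned to between 0.00090 and 0.071 in 5 alternative fits. COL13A1, a transmembrane collagen, had 176 ± 13.4 normalized counts in Vector and 242 ± 58.4 in shEZH2 libraries (SD, n = 3 each) without overlap, a log2 fold change of 0.43 (limma adjusted p = 0.237) and of 0.37 without Vector replicate 2. COL7A1, which forms the anchoring fibrils of skin and mucosa, had a log2 fold change of -0.41, and of -0.385 without Vector replicate 2, and was called lower (-0.72) only without shEZH2 replicate 1 among the 17 alternatives. COL25A1, COL9A2, COL14A1, COL6A3 and COL6A6 had log2 fold changes of -0.53, 0.54, 0.91, 0.05 and -0.43 and did not pass the threshold. Without Vector replicate 2 the first 4 had -0.335, -0.035, 1.07 and 0.21, so that COL9A2 turned direction, and COL6A6 was not tested. In 9 of the 13 collagens with a mean of at least 50, shEZH2 replicate 1 was the highest shEZH2 library, against 36.6% of all genes at that level.

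Of the laminins 1 of 9 tested members, LAMA4, was called lower (all genes 7.07%), and 1 of 10 without Vector replicate 2 (all genes 5.61%). The class median was -0.39, and -0.07 when that library was left out, but these medians are not over the same genes. Of the fits with and without that library, LAMA3 was tested only without it. LAMA3 had at most 19 reads in any library and a log2 fold change of 0.72 in that fit. LAMC1 had 10279, 17129 and 10042 normalized counts in Vector and 8197, 9194 and 10077 in shEZH2 libraries. Its log2 fold change was -0.41 (SE 0.23, limma adjusted p = 0.334), and -0.16 without Vector replicate 2. All 7 laminins with a mean of at least 50 were highest in Vector replicate 2 within their group, where 42.5% of all genes at that level and 6 of 13 collagens were. The beta chains LAMB1, LAMB2 and LAMB3 had log2 fold changes of -0.20, -0.39 and -0.39, and of 0.0077, -0.17 and -0.30 without it. LAMA5, the alpha chain of most adult epithelial basement membranes, had -0.20 and 0.09, and LAMA1, the alpha chain of early embryonic basement membranes, -0.59 and -0.21. The direction of LAMB1 and LAMA5 thus turned without this library. LAMC3 had a log2 fold change of 0.24, and of 0.56 without Vector replicate 2, and did not pass the threshold in either fit.

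**Figure D4:**
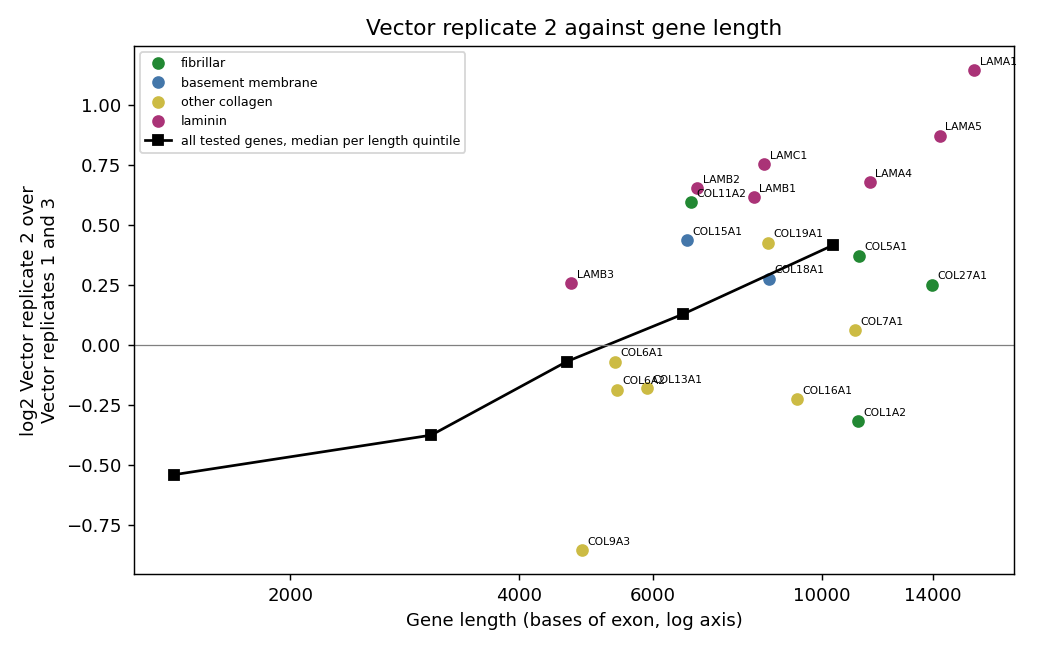
log2 ratio of Vector replicate 2 to Vector replicates 1 and 3 against exonic gene length (log axis) for the 20 members whose mean reached 50 normalized counts, coloured by class. Black squares are medians of length quintiles of all genes tested, from -0.54 to 0.42, and the 7 laminins all lie above 0.

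The share of LAMA4 among the laminin alpha chains was lower, and that of LAMA5 higher, in every shEZH2 library than in every Vector library. These were 2 of 7 laminin chain shares, of 12 compared, whose groups did not overlap. The others were LAMA2, LAMA3, LAMB1, LAMC1 and LAMC3. Shares of 1 chain type depend on each other, so these are not 7 separate results. Gene levels did not overlap in 16.5% of all genes tested with shEZH2 lower and in 18.4% with shEZH2 higher. Without Vector replicate 2, 8 shares did not overlap, but groups of 2 and 3 libraries separate more easily. LAMA2 and LAMA3 had counts too low for the main fit. Their shares were 0.34% and 0.20% in Vector and 0.67% and 0.55% in shEZH2 libraries. Shares add up to a fixed total, and the level of LAMA5 itself was 1410 ± 530 normalized counts in Vector and 1179 ± 122 in shEZH2 libraries (SD, n = 3 each). As a share of the summed alpha chain level per kb within each library, LAMA4 had 55.8%, 51.1% and 54.4% in Vector and 31.3%, 39.8% and 37.6% in shEZH2 libraries. The share of LAMA5 was 37.3%, 40.1% and 38.4% in Vector and 61.0%, 50.6% and 53.2% in shEZH2 libraries. Vector replicate 2 was close to its group in both shares. The difference, shEZH2 minus Vector, was -17.6 percentage points for LAMA4 and 16.3 points for LAMA5, and -18.9 and 17.1 points without Vector replicate 2. A two-sided exact permutation test gave p = 0.1 for each, the smallest p that 3 against 3 libraries allow, and an adjusted p of 0.171 over the 12 chain shares compared, so the design cannot pass 0.05. LAMA1 held 7.08% ± 1.08 and 7.63% ± 1.03 (SD, n = 3 each). LAMB1 made up 57.6% and 60.8% of the beta chain level, LAMB2 35.7% and 33.1%, and LAMC1 99.6% and 99.4% of the gamma chain level.

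**Figure D5:**
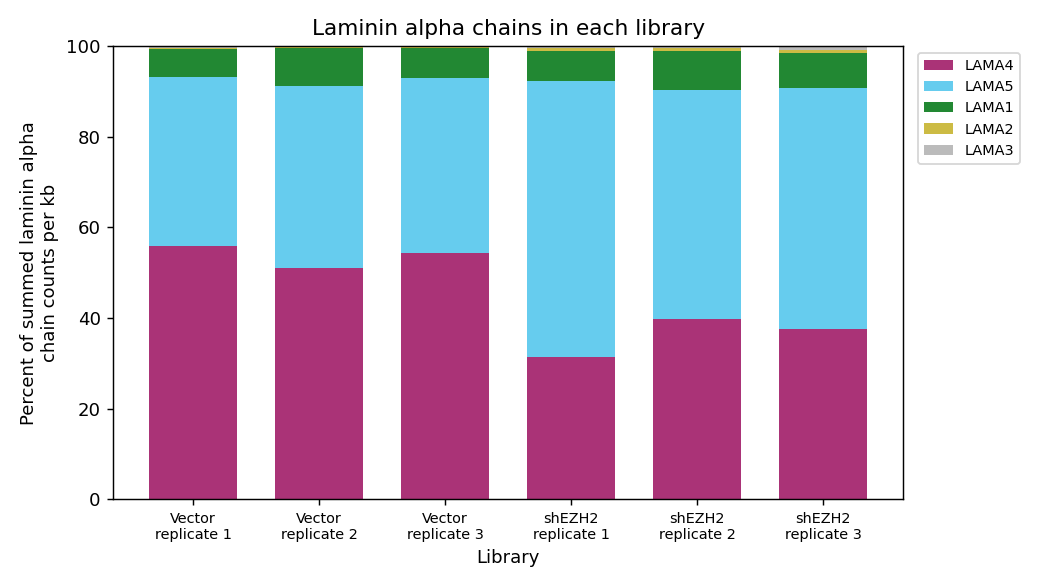
Share of each laminin alpha chain gene in the summed alpha chain counts per kb, as percent, in each of the 6 libraries. LAMA4 takes 51.1% to 55.8% in Vector and 31.3% to 39.8% in shEZH2 libraries, and LAMA5 37.3% to 40.1% and 50.6% to 61.0%.

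The genes that fold, process and bind these chains were read from 4 lists. Over all genes tested, 7.07% were called lower and 7.55% higher, and 5.61% and 7.15% without Vector replicate 2. Of 20 tested genes for chain modification and folding, 3 were called lower and 0 higher, and 1 lower without Vector replicate 2. P4HA1, a prolyl hydroxylase subunit that stabilises the triple helix, had 676, 604 and 686 normalized counts in Vector and 282, 413 and 346 in shEZH2 libraries, with a log2 fold change of -0.93 (SE 0.17, limma adjusted p = 0.0306) and of -0.99 without Vector replicate 2. MIA3, which loads collagen into transport carriers, had -0.67, and -0.50 without Vector replicate 2. The coat protein SEC24D had -0.59 and -0.52, so that both passed the fold limit only with that library. Their limma adjusted p was 0.0833 and 0.0714 with that library, and 0.00986 and 0.0121 without it. The chaperone SERPINH1 had 0.17, which turned to -0.048 without it.

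Of 7 tested genes for processing and crosslinking, 2 were called higher and 1 lower. Without Vector replicate 2, 8 were tested, ADAMTS3 being added, and 4 were called higher (ADAMTS3, TLL2, PCOLCE and LOXL2) and 1 lower (LOXL3). LOXL2, a lysyl oxidase that crosslinks collagen, had 265, 244 and 276 normalized counts in Vector and 488, 450 and 468 in shEZH2 libraries (log2 fold change 0.84, SE 0.13, limma adjusted p = 0.0201, and 0.79 without Vector replicate 2). LOXL3, of the same family, fell by 0.63 on the log2 scale (limma adjusted p = 0.0368), and by 0.65 without Vector replicate 2. PCOLCE, which enhances cleavage of procollagen ends, had a log2 fold change of 1.16 (limma adjusted p = 0.108) and of 0.77 without Vector replicate 2.

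Of 10 tested partners of basement membranes and fibrils, 3 were called higher and 2 lower, as were 3 and 2 of 9 without Vector replicate 2. FN1 (fibronectin) had a log2 fold change of 0.87 (limma adjusted p = 0.0949), FBLN1 (fibulin-1) 1.19 (adjusted p = 0.0249) and LUM (lumican) 0.74 (adjusted p = 0.0772), and without Vector replicate 2 they had 1.05, 1.07 and 0.60. The tenascins TNXB and TNC had -1.46 (adjusted p = 0.0578) and -1.40 (adjusted p = 0.0303), and -1.09 and -1.11 without that library. The basement membrane proteoglycan HSPG2 had -0.63 and, without Vector replicate 2, -0.19. Of 12 tested collagen and laminin receptors, 1 was called lower (all genes 7.07%) and 0 higher (all genes 7.55%), as of 11 without Vector replicate 2. It was ITGA10, a collagen-binding integrin chain with a log2 fold change of -1.22 (limma adjusted p = 0.102) and of -1.17 without Vector replicate 2, which is under a mean of 50 normalized counts and was named after its values were seen. ITGA3 and ITGA6, integrin chains for laminin, had -0.44 and -0.46, and -0.335 and -0.24 without that library.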

How the data were processed

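Poly(A) RNA-seq of 3 Vector and 3 shEZH2 libraries was analysed. The deposited signal is gene counts from featureCounts 1.5.0-p3 that the authors divided by DESeq2 1.20.0 size factors (versions from the submitters' processing notes, which name hg19, although 26 of 55 members share a start or end with GRCh38 and 0 with GRCh37). The aligner is not given in the sources used here. Every value was a whole multiple of 1 read (100%, tolerance 0.01), and column numbers were taken as replicate numbers. The authors' fold change and p-value columns hold their own comparison and were not used.

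Genes with a mean of at least 10 were tested with limma 3.58.1 (R 4.3.3, moderated with a mean trend) on log2(normalized count + 1), without a replicate block. edgeR 4.0.16 and DESeq2 1.42.0 were run on the recovered reads as alternatives, with other pseudocounts, filters, scalings and left-out libraries. The fits were also run on simulated counts, which held no gene length trend in Vector replicate 2 and so do not cover that trend. Chain shares were compared by an exact permutation test added after the data were seen.

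Members with a mean of at least 10 are named, except 1 that is counted in the totals but is not reported here. Library values are given for those called with a mean of at least 50 and for the highest per kb in each class. From the gene lists, the 2 largest rises and falls with a mean of at least 50 are named, with a few more chosen after their values were seen. Members and lists were chosen with earlier results of these data known. Promoter windows are RefSeq GRCh38.p14.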

Additional observations from a re-analysis of the deposited data

How the results depend on the processing

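COL19A1 and LAMA4 stayed past the threshold in all 17 alternative fits, with adjusted p from 1.02e-12 to 0.0616 and from 2.58e-05 to 0.141. COL16A1 and COL15A1 were lost only where an adjusted p was required in place of the unadjusted p. That choice left 2 members lower, 345 genes higher and 279 lower over all genes, and 2 higher and 3 lower in the 4 lists, where the unadjusted p gave 5 and 7. The count of members lower ranged from 4 to 7 over the fits that left out 1 library, where the members called by adjusted p were 0 without any 1 shEZH2 replicate and COL19A1 alone without Vector replicate 1 or 3. DESeq2 called 7 lower and edgeR 6. With the gene length trend removed, 5 members were lower (COL1A2 was lost) and 1 higher (COL27A1).

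Deviations from the group mean in samples of the same number had correlations of 0.28, 0.22 and -0.11. Those of Vector replicate 2 had correlations of -0.85 and -0.84 with Vector replicates 1 and 3. So these values cannot decide whether samples of the same number were paired, and the labels do not state it. With a replicate block 7 members were lower, LAMA1 being added, and 3 by adjusted p; 2 of 3 Vector libraries correlated best with their own number.

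The class medians moved most, and the genes tested in a class could differ between fits. With no minimum mean they were 0.47 for the fibrillar and -0.29 for the basement membrane collagens, and with a mean of at least 50 -0.48 for the fibrillar. Leaving out 1 library gave -0.51 to -0.27 for the fibrillar, -1.20 to -0.58 for the basement membrane, -0.31 to -0.031 for the other collagen and -0.45 to -0.074 for the laminin median, -0.074 being without Vector replicate 2. COL6A2 turned to 0.0099 with TMM factors, and ranged from -0.15 to 0.071 over the left-out libraries (0.00096 without Vector replicate 1, 0.012 without Vector replicate 3, 0.071 without shEZH2 replicate 2, 0.00090 without shEZH2 replicate 3). LAMA5 turned to 0.049 with the length trend removed and to 0.089 without Vector replicate 2, and LAMB1 to 0.0077 without it, over left-out libraries from -0.36 for LAMA5 and from -0.30 for LAMB1. The cause was not tested. The 25 members left out of the main fit had at most 19 reads in any library, and whether deeper sequencing would change this was not tested.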
